A study of Mus musculus with 8 samples.

Results

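Loss of the remaining Gab2 allele was followed by comparing bone marrow (BM) of 3 AML KO mice, which have no functional Gab2 allele, with BM of 2 AML HET mice, which have 1. These are 5 of the 8 mice that were sequenced, assigned by the genotype in their labels, and the comparison covers all 13305 genes of the count table. The other 3 mice, AML WT, keep both alleles and give the first step, from 2 alleles to 1, against which the second step is read. Every mouse carries the Mx1-Cre transgene, 1 intact Dnmt3a allele (Dnmt3a+/-) and an internal tandem duplication in both Flt3 alleles (Flt3ITD/ITD) on the C57BL/6N strain. The Gab2 genotype is +/+, +/- and -/- for AML WT, AML HET and AML KO, respectively. Dnmt3a is lost through Cre driven by the Mx1 promoter, which is itself interferon-responsive, whereas the Gab2 and Flt3 alleles are constitutive and therefore present in every cell, BM stroma included. The samples are whole BM, and neither the age nor the sex of these mice is in the labels.

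Gab2 is a docking protein without enzymatic activity. After cytokine and growth factor receptors are activated it becomes phosphorylated on tyrosines, and it then recruits the phosphatase Shp2 (Ptpn11), the p85 subunit of PI3K and Crk adaptors, while Grb2 tethers it to the receptor. It thereby carries signals of Flt3, Kit and the interleukin-3 receptor towards the ERK, PI3K and Stat5 pathways in hematopoietic cells.

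The AML HET libraries hold 28009258 and 31426202 counts and the AML KO libraries 32941589, 28060639 and 33125117, and the 10 genes with the most counts took 5.63% to 6.51% of a library over all 8 mice. Levels are given in CPM, counts scaled to the TMM-normalized library size. Markers of neutrophils, erythroid cells, megakaryocytes, monocytes and B cells were counted in every mouse, as whole BM holds. Gab2 itself lies on chromosome 7 from 97081586 to 97308946 (mm10). Its level was 55.8 and 50.8 CPM in AML HET and 35.0, 47.2 and 40.2 CPM in AML KO mice, so that the groups did not overlap although reads remained. In the knockout allele a neomycin cassette replaces part of the exons, and the exons that these reads cover cannot be read from gene counts. Its second step was −0.39 ± 0.20 (log2 fold change ± standard error, adjusted p = 0.847 in edgeR's quasi-likelihood test), beside −0.49 ± 0.20 at the first step. Flt3 (log2 fold change 0.10, 95% interval −0.19 to 0.40) and Dnmt3a (−0.01, −0.47 to 0.45), the genes of the disease alleles, differed by less than their error.

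Between AML KO and AML HET BM 0 genes (0%) reached an adjusted p below 0.05 in edgeR's quasi-likelihood test. Without adjustment, 780 genes (5.86%) had a p under 0.05, of which 468 (3.52%) were higher and 312 (2.34%) lower in the AML KO mice. The log2 fold change was above 0 at 50.1% and below 0 at 49.9% of all genes, with a median of 0.00068, and 24.2% of genes had no overlap between the groups (13.2% higher, 11% lower). DESeq2 called 77 genes, 67 higher and 10 lower, limma-voom called 0, and a fit of the 5 mice alone called 3 (Ppbp, Eno1b and Gm5801). On simulated counts with these group sizes, edgeR recovered 92 of 100 4-fold changes and 48 of 100 2-fold changes, and called 6 unchanged genes. The simulation used the spread fitted by the model and the same mean for AML WT and AML HET mice. It therefore does not show that 4-fold changes are absent here. Ppbp and Reep2, with log2 fold changes of 2.10 and 2.91, did not pass. Single genes are therefore given with the values and the order of the mice. Lists of marker and pathway genes are described by their counts beside these shares of all genes, and those shares are the level to read them against.

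The position of the AML HET mice relative to both other groups was then described gene by gene. At 587 genes (4.41%) all 3 AML KO mice lay above the other 5 mice while the AML HET mean stayed within the range of the AML WT mice, and at 460 genes (3.46%) they lay below in the same way. At 236 genes (1.77%) every AML HET mouse lay above every AML WT mouse and every AML KO mouse above both, and at 94 genes (0.707%) the order was the reverse. A change at the first step alone, with the AML HET mean within the AML KO range and all AML WT mice apart, was seen at 200 genes (1.5%) higher and 192 (1.44%) lower. These orders were defined after the values were seen. They are no test: whether the second step differs from the first was tested as 1 contrast in the same fit, and there 1 gene (0.00752%) passed, Gm26862, described below, with 151 genes (1.13%) at an unadjusted p under 0.05. On simulated counts that contrast found 52 of 100 changes of 4-fold and 3 of 100 of 2-fold, a lower yield than for the second step itself. Both steps use the same AML HET mice, and a value of these mice that is low by chance raises the second step and lowers the first. The second step is also part of that contrast, which favours genes named for a small p at the second step. For such genes the unadjusted p of the difference between the steps is no separate support for an order.

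**Figure D1:**
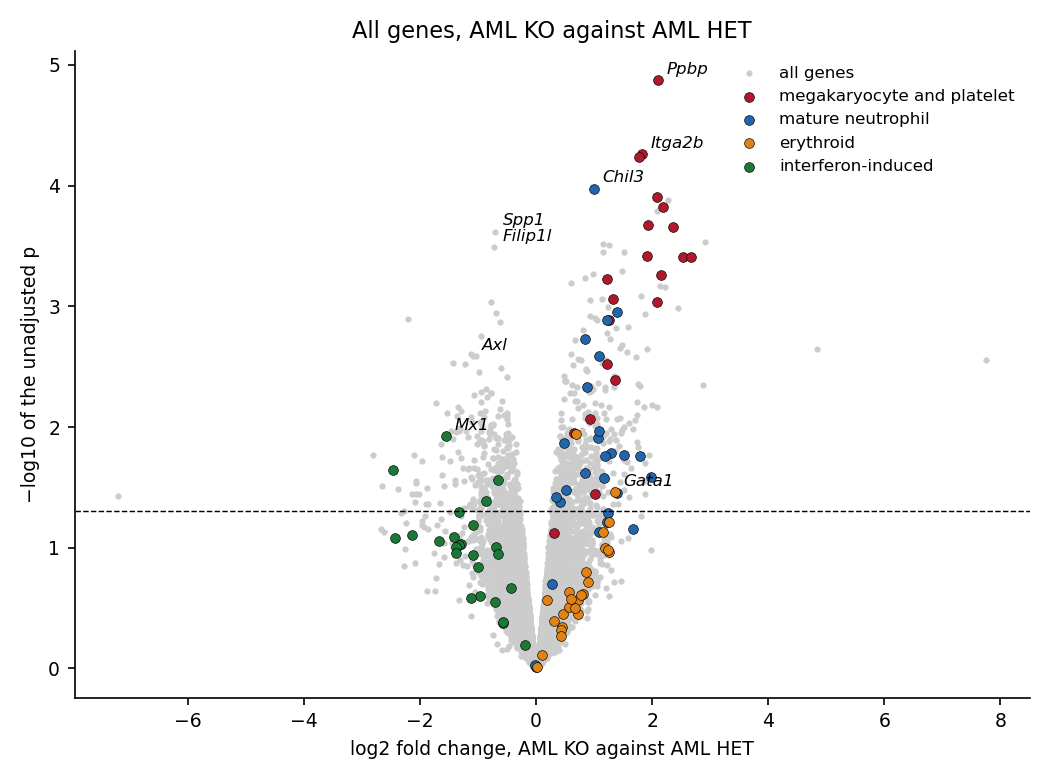
Log2 fold change of AML KO against AML HET (x axis) and −log10 of the unadjusted p (y axis) for all 13305 genes in grey, with 4 lists in colour; the dashed line is an unadjusted p of 0.05. Genes of the megakaryocyte and platelet list lie at the upper right, where Ppbp has the smallest p of all genes, while all 25 interferon-induced genes lie left of 0.

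Genes of megakaryocytes, the large BM cells that shed platelets, were higher in the AML KO mice, and 7 of the 12 genes with the smallest p in this direction belong to their list. Of 24 markers 23 were measured (P2ry12 is not listed), 22 were higher in AML KO, 20 of them at an unadjusted p under 0.05 where 3.52% of all genes were, and at 21 the 3 AML KO mice lay above both AML HET mice, where 13.2% of all genes did so. Their median log2 fold change was 1.78 at the second step and 0.68 at the first. DESeq2 called 17 of them. Leaving out single mice moved the median between 1.5 and 1.84 and the number at an unadjusted p under 0.05 between 17 and 20. The summed level of the list was 428 to 516 CPM in AML WT, 526 and 530 in AML HET and 772 to 916 in AML KO mice. In whole BM, more cells of a type and more RNA per cell cannot be told apart, here and for every list below.

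The first stretch of sequence upstream of 4 of these genes is shown because their levels moved together and GATA factors are known regulators of platelet genes. The 250 bases before the RefSeq transcription start (GRCm38.p6) run 5′ to 3′ on the gene's strand, with each GATAA, or its reverse complement TTATC, in capitals. They lie at chr5:90768268-90768517 (plus strand) for Ppbp, chr11:102469884-102470133 (minus) for Itga2b, chr16:30310782-30311031 (minus) for Gp5 and chr6:60944067-60944316 (plus) for Mmrn1.
Ppbp: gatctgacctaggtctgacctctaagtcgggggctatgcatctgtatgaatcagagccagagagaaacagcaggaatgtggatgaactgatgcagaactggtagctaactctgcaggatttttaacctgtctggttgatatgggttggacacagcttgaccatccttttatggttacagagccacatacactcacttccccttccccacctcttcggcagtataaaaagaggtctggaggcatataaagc
Itga2b: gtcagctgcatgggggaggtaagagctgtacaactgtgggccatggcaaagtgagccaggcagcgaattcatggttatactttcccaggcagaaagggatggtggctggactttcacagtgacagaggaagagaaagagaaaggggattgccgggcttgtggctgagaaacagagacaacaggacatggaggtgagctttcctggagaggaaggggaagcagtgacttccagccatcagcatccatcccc
Gp5: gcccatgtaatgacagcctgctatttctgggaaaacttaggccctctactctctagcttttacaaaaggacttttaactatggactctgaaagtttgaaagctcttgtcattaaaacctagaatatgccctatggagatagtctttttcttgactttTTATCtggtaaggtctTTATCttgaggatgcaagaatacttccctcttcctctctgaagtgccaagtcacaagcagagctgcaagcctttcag
Mmrn1: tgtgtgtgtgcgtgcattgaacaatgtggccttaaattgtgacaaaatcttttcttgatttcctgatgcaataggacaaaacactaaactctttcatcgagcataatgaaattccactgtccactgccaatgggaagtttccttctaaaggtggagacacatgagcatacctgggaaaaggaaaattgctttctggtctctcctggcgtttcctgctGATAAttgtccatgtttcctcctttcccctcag
The letters occur 2 times before Gp5, 93 and 77 bases from the start, once before Mmrn1, 33 bases from it, and at neither of the other genes. Of the 18 genes of the megakaryocyte and platelet list with a RefSeq promoter 10 hold GATAA on either strand (55.6%), as do 13 of 17 erythroid genes (76.5%), 7 of 18 interferon-induced genes (38.9%), 5 of 22 mature neutrophil genes (22.7%), 0 of 5 primary granule genes and 1796 of all 10006 promoters (17.9%). A match is a string of letters and not a measured binding site.

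Platelet chemokines and granule proteins came first. Ppbp, the precursor of the neutrophil-attracting chemokine NAP-2, was at 4.35, 2.72 and 4.26 CPM in AML WT, 7.85 and 11.3 in AML HET and 37.4, 47.6 and 38.4 in AML KO mice. The 3 groups did not overlap, and the lowest AML KO mouse was well above the highest AML HET mouse. The second step was 2.10 on the log2 scale (standard error 0.26, adjusted p = 0.178) and the first 1.34 (0.24), and the difference between the steps was within error (unadjusted p = 0.121). Pf4, the neighbouring platelet factor 4, was at 6.00 and 12.7 CPM in AML HET and 69.2, 42.1 and 33.3 in AML KO mice (log2 fold change 2.37, standard error 0.41, adjusted p = 0.261). Thbs1, which encodes thrombospondin of the platelet alpha granule, was at 23.3, 19.6 and 10.5 CPM in AML WT, 16.6 and 18.4 in AML HET and 29.7, 61.4 and 44.5 in AML KO mice. Here the AML HET mice lay within the AML WT range, and the steps were −0.03 and 1.37. Mmrn1, the factor V carrier multimerin, reached 4.35, 5.68 and 4.86 CPM in AML KO against 1.47 and 1.12 in AML HET mice (1.94, standard error 0.34, adjusted p = 0.261).

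Receptors of the platelet surface were ordered in the same way. Itga2b, the alpha chain of the fibrinogen receptor, was at 12.8, 13.4 and 12.5 CPM in AML WT, 19.9 and 32.2 in AML HET and 122, 75.5 and 78.7 in AML KO mice. AML KO replicate 1 had the highest level, and none of the groups overlapped (log2 fold change 1.82, standard error 0.27, adjusted p = 0.256). Its beta chain Itgb3, which other myeloid cells share, showed a smaller difference, with 75.3 and 82.2 CPM in AML HET and 122, 134 and 114 in AML KO mice (0.65, standard error 0.21). The chains of the von Willebrand factor receptor differed by 2.53 for Gp1bb, 2.20 for Gp5, 1.92 for Gp9 and 1.22 for Gp1ba on the log2 scale. Gp6, the collagen receptor, had 7, 5 and 4 counts in AML WT, 5 and 6 in AML HET and 40, 21 and 50 in AML KO mice. Its steps were 0.27 ± 0.57 and 2.67 ± 0.50 (log2 fold change ± standard error), and their difference had an unadjusted p of 0.0358, with counting error large at such counts.

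At some cytoskeletal and membrane genes of the lineage the second step was larger than the first at an unadjusted p under 0.05. The second step, for which most of them were named, is part of that difference, so this p is no separate support. In the megakaryocyte and platelet list 3 of 23 genes had a positive difference at that p and 0 a negative one, and 0 passed after adjustment. Cavin2, a caveolar coat protein of platelets, was at 1.57, 1.86 and 0.918 CPM in AML WT, 1.40 and 2.26 in AML HET and 9.88, 9.54 and 7.19 in AML KO mice. The AML HET mice overlapped with AML WT and not with AML KO, with steps of 0.34 ± 0.35 and 2.27 ± 0.37 (log2 fold change ± standard error) that differed at an unadjusted p of 0.0155 (adjusted p = 1). Tubb1, the beta tubulin of the platelet marginal band, had steps of 0.26 and 2.16 (unadjusted p of their difference 0.0326) and Myl9, a myosin light chain, 0.73 and 1.78 (0.047). Tmem40, a transmembrane protein, had steps of 0.21 and 1.16 (0.0304). Other members overlapped between the groups. Plek was at 179 and 121 CPM in AML HET and 148, 162 and 141 in AML KO mice, and Nbeal2 had a log2 fold change of −0.01 (95% interval −0.27 to 0.26). Over the list, 16 genes followed the graded order and 3 (Itgb3, Thbs1 and Tubb1) the order in which AML HET stays within AML WT. Reep2 (2.91, standard error 0.53), Alox12 (2.09, 0.35), a lipoxygenase of platelets, and Treml1 (2.09, 0.34), a platelet granule receptor, are others of the 12 genes with the smallest p.

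**Figure D2:**
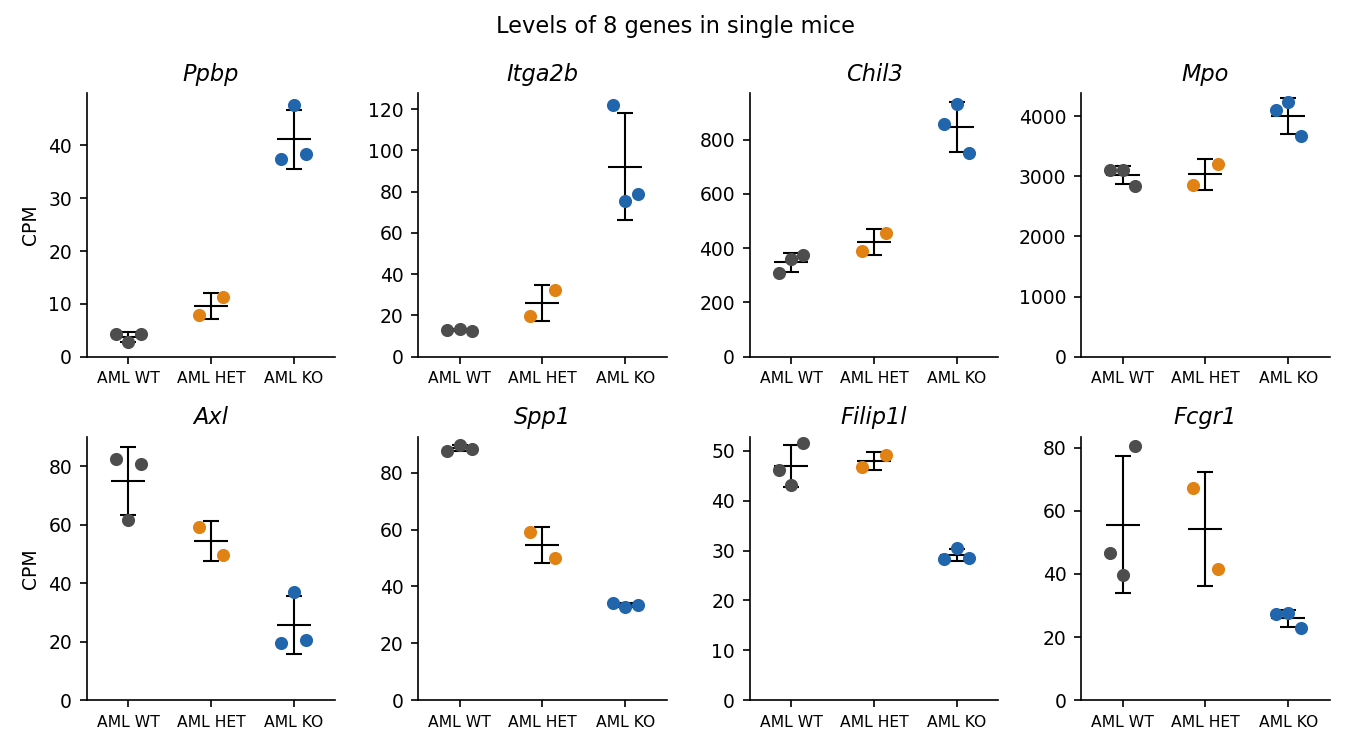
Levels in CPM (y axis, from 0) of 8 genes in single mice (points) of each genotype (x axis), with mean and SD. Ppbp and Itga2b were highest in the 3 AML KO mice with AML HET between the other groups, Chil3 and Mpo were close in AML WT and AML HET, and Axl, Spp1, Filip1l and Fcgr1 were lowest in the 3 AML KO mice.

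Granule genes of mature neutrophils were higher in AML KO than in AML HET BM at 25 of 26 members. Of these members 20 had an unadjusted p under 0.05 (3.52% of all genes were higher at that p) and 24 had no overlap between the groups (13.2% of all genes). Their median log2 fold change was 1.09 at the second step and 0.49 at the first, and 15 members followed the graded order (1.77% of all genes). Without 1 AML HET mouse the number at an unadjusted p under 0.05 was 9 (without replicate 1) or 8 (without replicate 2), while the median stayed at 1.04 and 1.11. Camp, the cathelicidin of secondary granules, was at 92.8, 273 and 429 CPM in AML WT, 551 and 666 in AML HET and 2412, 1462 and 1356 in AML KO mice. Ltf, lactoferrin, was at 616 and 811 CPM in AML HET and 1840, 1688 and 1282 in AML KO mice. Both genes thus had no overlap, yet they had log2 fold changes of 1.52 and 1.17 with standard errors of 0.53 and 0.45.

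Chil3 (Ym1), a chitinase-like protein of the neutrophil lineage, had little spread within groups. Its level was 309, 360 and 375 CPM in AML WT, 390 and 456 in AML HET and 858, 932 and 750 in AML KO mice, with steps of 0.28 ± 0.15 and 1.00 ± 0.16 (log2 fold change ± standard error) that differed at an unadjusted p of 0.0289. Mmp9, the gelatinase of tertiary granules, was at 52.9, 45.5 and 82.8 CPM in AML WT, 55.8 and 56.6 in AML HET and 138, 157 and 99.0 in AML KO mice. Its first step was −0.10 and its second 1.22 (unadjusted p of the difference 0.0225). Mmp8, the neutrophil collagenase, went the other way at the first step, from 172, 132 and 106 CPM in AML WT to 96.6 and 95.8 in AML HET, and was back at 134, 157 and 119 in AML KO mice. Lcn2, the iron-sequestering lipocalin, differed by 1.39 on the log2 scale (standard error 0.30, adjusted p = 0.375) and Cebpe, the transcription factor of secondary granule genes, 1.09 (0.27, adjusted p = 0.511). Csf3r, the receptor of G-CSF, had a second step near 0 (−0.01, 95% interval −0.30 to 0.28).

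Primary granule genes, which are made earlier, at the promyelocyte stage, overlapped between AML WT and AML HET and were higher in AML KO BM. All 6 measured members (Bpi is not listed) were higher, 5 at an unadjusted p under 0.05 (3.52% of all genes), with medians of 0.43 at the second step and 0.02 at the first. The number at that p was 0 without AML HET replicate 1, 2 without AML HET replicate 2, 1 without AML KO replicate 2 and 3 without either other AML KO mouse, with medians from 0.33 to 0.49. Mpo, myeloperoxidase, was at 3109, 3109 and 2840 CPM in AML WT, 2848 and 3212 in AML HET and 4097, 4242 and 3671 in AML KO mice. The AML WT and AML HET mice overlapped and the AML KO mice lay above all of them (second step 0.40, standard error 0.15; first step 0.00, 0.15), but the difference between the steps was within error (unadjusted p = 0.168). Prtn3, proteinase 3, had steps of 0.14 and 0.47 and Ms4a3 of 0.03 and 0.38, whereas Elane, neutrophil elastase, overlapped between AML WT (897, 730 and 559 CPM) and AML KO mice (705, 1169 and 804), with AML HET at 586 and 621. None of the 6 genes had an unadjusted p under 0.05 for the difference between the steps.

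Markers of basophils, mast cells and eosinophils were also higher. Of the 8 measured genes of the basophil and mast cell list 7 were higher, 5 at an unadjusted p under 0.05 (3.52% of all genes, list median 0.96), while the mast cell tryptases, Mcpt4 and Cma1 are not listed. That number was 1 without AML HET replicate 2 and 3 without AML HET replicate 1 or AML KO replicate 1, with medians from 0.70 to 1.11. Prss34, a basophil protease, was at 1.67, 5.37 and 8.24 CPM in AML WT, 28.7 and 23.6 in AML HET and 144, 67.3 and 75.0 in AML KO mice (log2 fold change 1.87, standard error 0.54, adjusted p = 0.706), and Hdc, the histamine-synthesizing enzyme, at 24.4 and 28.5 in AML HET and 50.9, 62.3 and 43.6 in AML KO mice (0.98, standard error 0.19, adjusted p = 0.314). Hdc separated the groups with less spread than Prss34, and neither overlapped. Among 6 eosinophil genes the median was 0.65 after 0.72 at the first step. Prg2, the major basic protein, was at 12.8 and 14.0 CPM in AML HET and 41.2, 35.1 and 25.6 in AML KO mice, and Epx, eosinophil peroxidase, at 0.701 and 0.510 against 2.06, 1.78 and 1.36.

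Of 24 genes of stem and progenitor cells 20 were higher in AML KO, 8 of them at an unadjusted p under 0.05 (3.52% of all genes), with a median of 0.35 at the second step and 0.09 at the first. Without AML HET replicate 1, AML HET replicate 2 or AML KO replicate 3 the 8 genes became 4, 3 and 5, with medians of 0.36, 0.29 and 0.38. Hlf, a stem cell transcription factor, was at 12.6, 9.07 and 7.81 CPM in AML WT, 11.4 and 7.74 in AML HET and 16.5, 15.2 and 13.7 in AML KO mice. The AML HET mice overlapped with AML WT and the AML KO mice lay above both, with steps of −0.04 and 0.66 (standard error of the second 0.26, adjusted p = 0.771, unadjusted p of the difference 0.161). Gata2, which is shared by stem cells, megakaryocytes and basophils, was at 13.7 and 15 CPM in AML HET and 45.7, 24.1 and 25 in AML KO mice (1.14, standard error 0.28), and Slamf1, the CD150 marker, at 0.456 and 0.988 against 1.86, 1.86 and 1.97. The leukemic self-renewal genes Hoxa9 (0.02, 95% interval −0.42 to 0.47) and Meis1 (0.26, −0.13 to 0.64) and the receptor Kit (0.19, −0.29 to 0.68) had intervals that include 0.

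**Figure D3:**
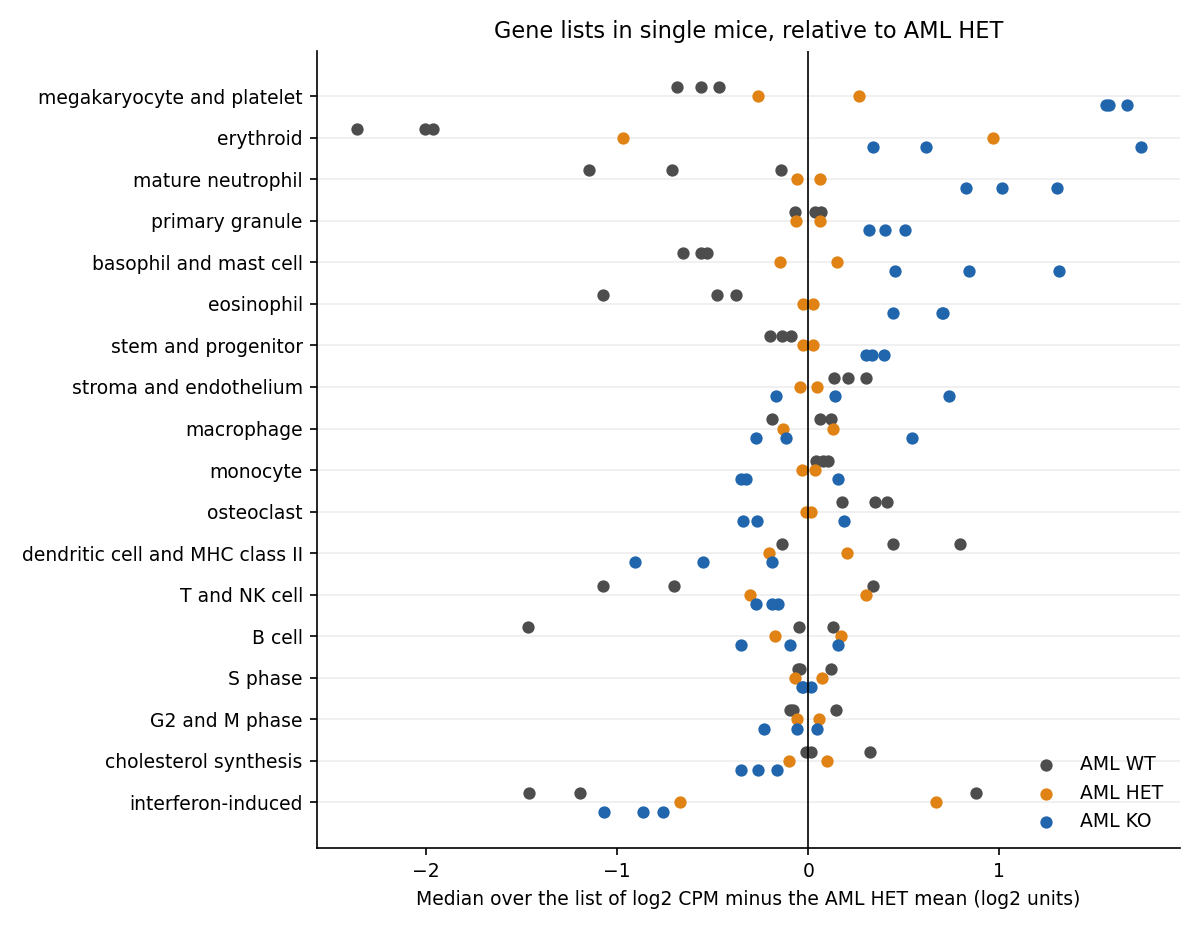
Median over the genes of each list (y axis) of log2 CPM minus the AML HET mean (x axis, log2 units), 1 point per mouse, coloured by genotype. The AML KO mice lie at 1.56 to 1.67 for the megakaryocyte and platelet list, while the 2 AML HET mice lie at −0.97 and 0.97 for the erythroid list and AML HET replicate 1 and AML WT replicate 3 stand high for the interferon-induced list.

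Erythroid genes differed from the megakaryocyte and mature neutrophil lists in their order, with the larger median step first. All 25 measured members were higher in AML KO than in AML HET BM, but only 2 of them, Gata1 and Tal1, at an unadjusted p under 0.05 and without overlap. The median step was 2.46 from AML WT to AML HET and 0.69 from AML HET to AML KO. At the first step 22 of them were higher at an unadjusted p under 0.05 and 24 without overlap, where 1.65% and 9.53% of all genes were (2.47% at that p in either direction). The difference between the steps was negative at an unadjusted p under 0.05 for 7 of the 25 genes and positive for 0, against 0.594% and 0.541% of all genes. Slc4a1, the band 3 anion exchanger of the red cell membrane, was at 4.77, 9.77 and 10.5 CPM in AML WT, 27 and 109 in AML HET and 186, 83.9 and 97.6 in AML KO mice. Hbb-bs, an adult beta globin, was at 103, 113 and 141 CPM in AML WT, 242 and 800 in AML HET and 2289, 627 and 830 in AML KO mice. AML HET replicate 2 lay among the AML KO mice at both genes, and AML KO replicate 1 was highest. The second step therefore rests on single mice: its median was 2.01 without AML HET replicate 2 and 0.086 without AML HET replicate 1. Without AML KO replicate 1 it was 0.15. Gata1, the transcription factor that erythroid cells share with megakaryocytes, had steps of 2.18 ± 0.56 and 1.36 ± 0.55 (log2 fold change ± standard error). The 9 heme synthesis genes had a median of 0.25 and 0 of them an unadjusted p under 0.05.

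Among genes lower in AML KO, Spp1, which encodes the secreted matrix protein osteopontin, had the smallest p. It was at 87.6, 89.7 and 88.3 CPM in AML WT, 59.1 and 50 in AML HET and 34, 32.7 and 33.5 in AML KO mice. The mice of each group lay close together and the groups did not overlap, and the steps of −0.70 ± 0.13 and −0.71 ± 0.12 (log2 fold change ± standard error) were alike in size (95% interval of neither includes 0, adjusted p of the second 0.261). Filip1l, a filamin A-interacting protein, had the second smallest p and another order. Its level was 46.2, 43.2 and 51.6 CPM in AML WT, 46.8 and 49.2 in AML HET and 28.4, 30.6 and 28.5 in AML KO mice. AML HET lay within AML WT and all AML KO mice lay below, with steps of 0.03 ± 0.13 and −0.72 ± 0.13 whose difference had an unadjusted p of 0.0098 (adjusted p = 1).

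Other genes of this order were Alpk1, an innate immune kinase, with 53.2, 44.3 and 42.7 CPM in AML WT, 51.1 and 49.5 in AML HET and 24.9, 28.8 and 34.1 in AML KO mice. Cnn3, an actin-binding calponin, had steps of 0.12 and −0.62, Nlrp1b, an inflammasome sensor, 0.10 and −0.95, Zdhhc23, a palmitoyltransferase, 0.32 and −2.20, and Zfp57, a zinc finger protein of imprinted loci, 0.32 and −1.22. The unadjusted p of the difference between the steps lay from 0.0108 to 0.0227 for these 5 genes, and 1.13% of all genes had one under 0.05. These genes were named for their small p at the second step, which is part of that difference. Zdhhc23 and Zfp57 were low throughout, at 0.131 to 0.400 and 0.796 to 1.14 CPM in AML KO mice. On the other side, Igfbp4, Crispld2 and Alox5, chosen after their values were seen, had first steps of −0.04, 0.11 and −0.12 and second steps of 0.60, 1.16 and 0.93. Igfbp4, a binding protein of insulin-like growth factors, was at 290 to 323 CPM in all 5 AML WT and AML HET mice and at 454, 456 and 472 in AML KO mice.

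**Figure D4:**
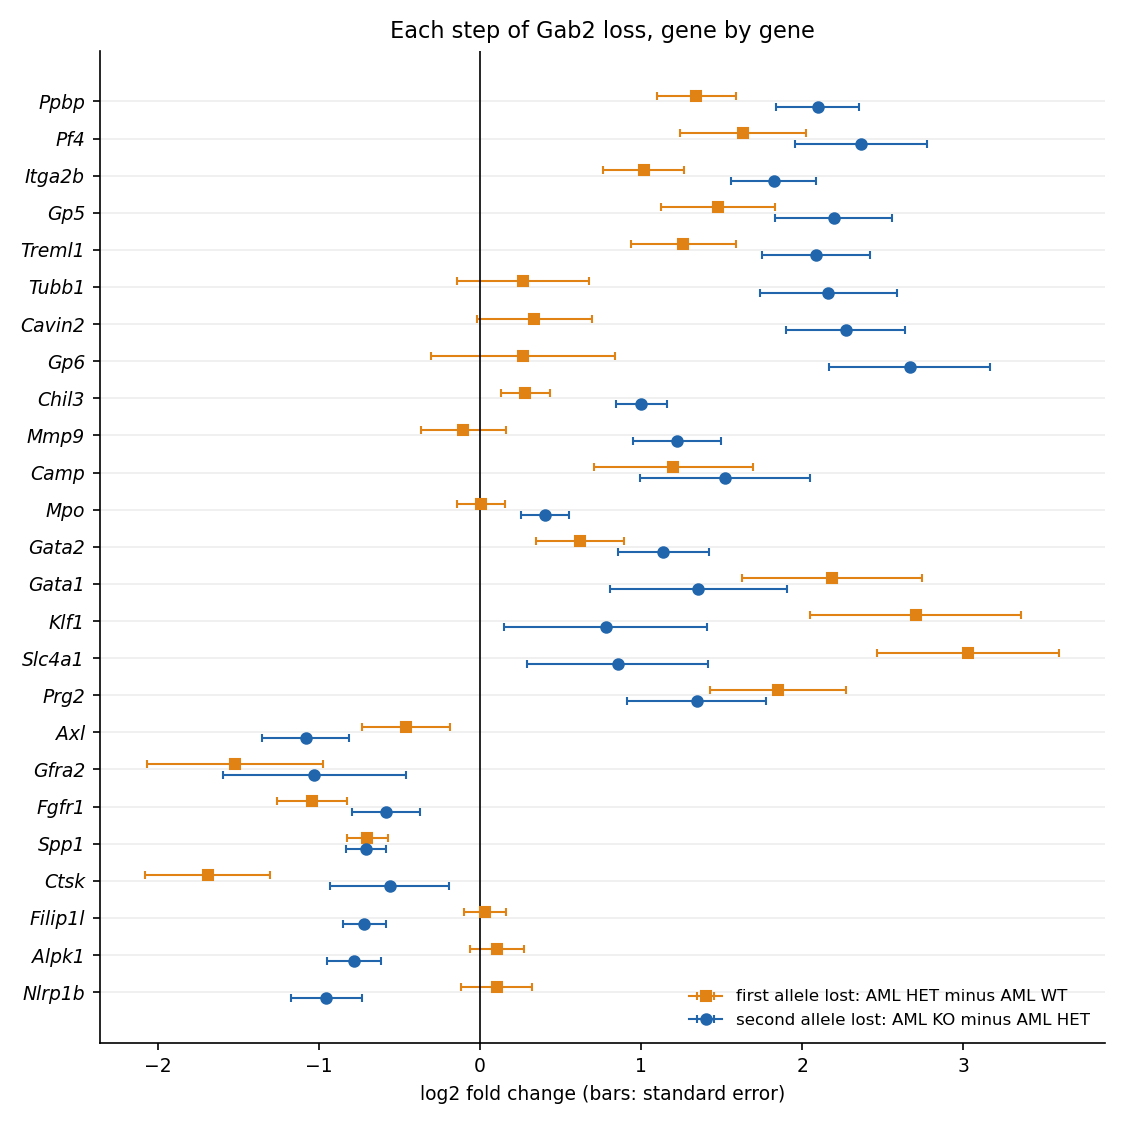
Log2 fold change (x axis) of AML HET against AML WT (orange squares) and of AML KO against AML HET (blue circles) for 25 genes (y axis), with standard errors from the edgeR fit. Platelet genes lie right of 0 at both steps and further at the second, erythroid genes further at the first, and Filip1l, Alpk1 and Nlrp1b near 0 at the first step and left of it at the second.

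Monocyte, dendritic cell and osteoclast genes were mostly lower, with smaller differences. Of 14 monocyte genes 11 were lower, 2 of them at an unadjusted p under 0.05 (2.34% of all genes), a number that was 0 without AML HET replicate 1, 1 without AML KO replicate 3 and 4 when AML KO replicate 2 was left out. Fcgr1, the high-affinity IgG receptor, was at 67.1 and 41.4 CPM in AML HET and 27.3, 27.6 and 22.8 in AML KO mice (log2 fold change −1.07, standard error 0.30, adjusted p = 0.636). Ccr2, the receptor that releases monocytes from BM, was at 1385 and 1089 against 994, 938 and 851 CPM. Both were lower in all 3 AML KO mice than in all other mice, while Csf1r, the receptor of M-CSF, overlapped (488 and 548 against 364, 598 and 393 CPM). The median log2 fold change of the monocyte list was −0.18, and −0.38 to −0.055 with single mice left out. Relative to the AML HET mean, the list median was 0.16 in AML KO replicate 2, above both AML HET mice (−0.035 and 0.035). It was −0.35 and −0.33 in the other AML KO mice. Of 10 genes of dendritic cells and MHC class II 9 were lower, 3 of them at an unadjusted p under 0.05 (2.34% of all genes), with medians of −0.58 and −0.54 at the second and first step. The 3 genes became 0 without AML HET replicate 1, 1 without AML KO replicate 1 or 3 and 6 without AML WT replicate 1, and the second-step median lay from −0.74 to −0.35. Ciita, the master regulator of MHC class II genes, was at 43.9 and 33.5 CPM in AML HET and 20, 33.5 and 16.7 in AML KO mice, where AML KO replicate 2 came within rounding of AML HET replicate 2. Of 9 osteoclast genes 1 was lower at an unadjusted p under 0.05 and without overlap at the second step, where 2.34% and 11% of all genes were. At that p there were 4 without AML KO replicate 2, 1 without AML WT replicate 1 and 0 without any other AML WT or AML KO mouse. The first step had 4 at that p and 5 without overlap, where 0.819% and 8.61% of all genes were. Relative to the AML HET mean, the osteoclast list median was 0.18 in AML KO replicate 2 and −0.34 and −0.27 in the other AML KO mice. The protease gene Ctsk had its larger difference at the first step, from 72.6, 64.0 and 70.5 CPM in AML WT to 23.8 and 19.0 in AML HET, with 10.4, 24.5 and 8.69 in AML KO mice.

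Macrophage genes went both ways, with 3 of 15 higher and 3 lower at an unadjusted p under 0.05 (3.52% and 2.34% of all genes). Leaving out single mice gave 1 to 3 higher and 1 to 5 lower, and without AML KO replicate 2 the median of 0.08 became −0.25. Cd5l, a scavenger protein of tissue macrophages, was at 0.280 and 0.860 CPM in AML HET and 1.41, 2.55 and 1.56 in AML KO mice, and the iron exporter Slc40a1 at 17.1 and 14.7 against 23.4, 27.8 and 21.2. Siglec1, a sialic acid receptor that interferon also induces, was at 14.9 and 5.03 CPM in AML HET and 1.14, 3.17 and 2.68 in AML KO mice (−2.09, standard error 0.73).

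The receptor tyrosine kinase Axl was lower at the second step by 1.08 on the log2 scale (standard error 0.27, adjusted p = 0.511), with 82.4, 61.6 and 80.7 CPM in AML WT, 59.4 and 49.6 in AML HET and 19.6, 37.1 and 20.5 in AML KO mice. No group overlapped, AML KO replicate 2 was nearest to AML HET, and the first step was −0.46 ± 0.27 (standard error). DESeq2 gave Axl an adjusted p of 0.0341. Gfra2, a GDNF family co-receptor, had 33 and 24 counts in AML HET and 5, 25 and 12 in AML KO mice, so that the groups overlapped in counts, and its steps were −1.52 ± 0.55 and −1.03 ± 0.57 (log2 fold change ± standard error). The second step of Gfra2 was −1.87 when AML KO replicate 2 was left out and −0.62 when AML KO replicate 1 was, so that a single mouse sets which step is larger. Of the 31 receptor tyrosine kinases listed among 54, 3 had an unadjusted p under 0.05, where 5.86% of all genes did. These were Axl, Fgfr1 (13.5 and 10 against 7.59, 9.54 and 6.42 CPM) and, in the other direction, Tie1, an endothelial and megakaryocytic receptor (14.0 and 15.9 against 27.8, 32.6 and 21.5 CPM). Without overlap of the groups, 2 of the 31 were higher and 3 lower in AML KO, where 13.2% and 11% of all genes were. Ret, the kinase partner of Gfra2, and Tyro3, a relative of Axl, are not listed in the table.

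In the list of Gab2 partners, 2 genes were higher and 1 lower in AML KO without overlap of the groups, where 13.2% and 11% of all genes were. Of the 23 genes of that list, 0 had an unadjusted p under 0.05, among them Grb2 (log2 fold change 0.13, 95% interval −0.14 to 0.39), Ptpn11 (−0.04, −0.43 to 0.35), Pik3r1 (0.02, −0.35 to 0.40) and Crk (−0.18, −0.49 to 0.12), and the log2 fold changes lay from −0.20 to 0.30. The list of PI3K, Akt and mTOR genes had 0 of 18 at an unadjusted p under 0.05. Among 16 Stat5 target genes, Bcl2l1, which encodes the survival protein Bcl-xL and is abundant in erythroid cells and megakaryocytes, was at 36.6 and 43.3 CPM in AML HET and 74.9, 48.5 and 53.8 in AML KO mice (0.56, standard error 0.20), and Axl was lower. The direct feedback targets Cish (0.20, 95% interval −0.18 to 0.58), Socs2 (0.19, −0.28 to 0.65) and Pim1 (−0.04, −0.44 to 0.36) had intervals that include 0. Of 11 ERK feedback genes Ccnd1, cyclin D1, was lower, with 16 and 10.2 CPM in AML HET and 4.55, 9.28 and 5.54 in AML KO mice, and of 13 immediate early genes Atf3, a stress-induced transcription factor, with 21.3 and 16.4 against 9.61, 12.6 and 6.81. Neither overlapped between the groups, and the medians of these lists were 0.00 and −0.17. Without overlap, 4 of the 11 ERK feedback genes were higher in AML KO and 1 lower. Of the 13 immediate early genes 2 were higher and 5 lower in this way, where 13.2% and 11% of all genes were.

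Genes of proliferation had medians near 0. These were −0.03 over 25 S phase genes and −0.08 over 24 G2 and M phase genes, and the single members at an unadjusted p under 0.05 were Chaf1b (0.31) and Bub1 (−0.45). Mki67, the proliferation marker Ki-67, was at 1142 and 1321 CPM in AML HET and 1167, 1059 and 1099 in AML KO mice. Of 21 cholesterol synthesis genes 18 were lower, 3 of them at an unadjusted p under 0.05 (median −0.25), and without single mice that number was 0 (AML HET replicate 1 or AML KO replicate 1), 1 (AML KO replicate 3) or 6 (AML KO replicate 2). Lss and Sc5d lay below all AML WT and AML HET mice in all 3 AML KO mice. Lss, lanosterol synthase, was at 19.2 and 16.5 CPM in AML HET and 10.1, 13.3 and 13 in AML KO mice. All 13 measured Atf4 targets were higher, with a median of 0.19 and 1 gene, Phgdh of serine synthesis, at an unadjusted p under 0.05 (0.30, standard error 0.12). Tet2, a DNA demethylating enzyme, was at 83.7 and 83.8 CPM in AML HET and 49.6, 56.6 and 72.0 in AML KO mice (−0.50, standard error 0.19), while Dnmt3b differed by −0.15 (95% interval −0.46 to 0.16).

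Of the remaining lists, B cell and T and NK cell genes had medians of −0.11 each, with 0 of 12 and 1 of 18 at an unadjusted p under 0.05. That gene was Il7r, the interleukin-7 receptor, at 5.01 and 3.09 CPM in AML HET and 1.44, 2.11 and 2.06 in AML KO mice. Genes of stroma and endothelium had a median of 0.30, which rests on AML KO replicate 2 and was −0.011 without it. Among them, Igfbp7 and Lepr were lower at the first step and higher at the second: Igfbp7 was at 9.17, 9.13 and 7.90 CPM in AML WT, 5.78 and 5.16 in AML HET and 11.8, 21.7 and 12.4 in AML KO mice (unadjusted p of the difference between the steps 0.00236). Integrins, cytokine receptors, glycolysis, the Bcl2 family, enzymes of DNA methylation, the mitochondrial genome and sex-linked genes had medians from −0.29 to 0.02 and at most 3 members each at an unadjusted p under 0.05. Genes of the Y chromosome were counted at 6.8 to 112.6 CPM, and Xist is not listed.

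All 25 interferon-induced genes were lower in AML KO than in AML HET BM, and at 11 of them the groups did not overlap (11% of all genes were lower without overlap). The size of the difference followed single mice. Mx1, an antiviral GTPase, was at 38.8, 36.7 and 125 CPM in AML WT, 106 and 51.6 in AML HET and 26.2, 24.3 and 30.4 in AML KO mice, and Irf7, the regulator of interferon production, at 43.1, 33.4 and 226, at 161 and 60.3 and at 43.4, 46.5 and 34.9 CPM. AML WT replicate 3 and AML HET replicate 1 were high, while the AML KO mice lay below AML WT replicates 1 and 2 at Mx1 and near them at Irf7. Over the whole list the AML KO mice lay above these 2 AML WT mice. Medians of log2 CPM minus the AML HET mean were −0.87, −0.76 and −1.07 in AML KO and −1.19 and −1.46 in AML WT replicates 1 and 2. The median log2 fold change was −1.08 with 4 genes at an unadjusted p under 0.05. It was −0.29 with 0 genes without AML HET replicate 1 and −1.68 with 15 genes without AML HET replicate 2. Without AML WT replicate 2 or 3 there were 7 and 20 genes, and 1 when AML KO replicate 1 or 3 was left out. The promoter that drives the Cre transgene belongs to this gene group, and its activity in these mice was not tested.

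The gene at which the steps differed was Gm26862, a sense-overlapping transcript on chromosome 7 from 93006982 to 93104789, 3.98 Mb from Gab2. It had a count of 0 in all 3 AML WT mice, 104 and 149 counts in AML HET and 162, 128 and 161 in AML KO mice. It was thus counted only in mice with a knockout allele, with an AML HET mean at least 44.3-fold above what 3 counts in the smallest AML WT library allow, and the second step was 0.22 ± 0.28 (log2 fold change ± standard error; adjusted p of the difference between the steps 0.0270). The other 7 genes with the smallest p of this contrast included 9130208D14Rik (steps of 3.85 and −0.65) and the pseudogenes Rps13-ps1 and Mrpl48-ps, Slfn14, an erythroid and platelet ribonuclease (3.86 and 0.48), Igfbp7, and Cyp2j6 (−0.53 and 1.14). Rps13-ps1 was at 1.57 to 1.64 CPM in AML WT, 78.6 and 88.7 in AML HET and 327, 70.6 and 164 in AML KO mice. Reads of such pseudogenes may be shared with their parent genes. Eno1b, an intronless enolase gene whose reads may be shared with Eno1, was at 65.9, 0.221 and 71.1 CPM in AML WT, 0.140 and 0.351 in AML HET and 49.3, 65.3 and 50.2 in AML KO mice. It was near 0 in 3 of the 8 mice and high in the others, AML WT replicate 2 being 1 of the 3. Gm5801 was at 0.140 and 0.191 CPM in AML HET, 7.03, 4.26 and 3.45 in AML KO, and 2.26, 0.0948 and 0.306 in AML WT mice.

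Genes on either side of Gab2 were looked at because linked genes can be inherited together with its knockout allele. Of the 234 genes within 20 Mb, 17 (7.27%) had an unadjusted p under 0.05, 8 higher and 9 lower, against 5.86% of all genes. Within 10 Mb it was 15 of 128 (11.7%) and within 5 Mb 8 of 79 (10.1%). Alg8, a glucosyltransferase gene 0.06 Mb from Gab2, was at 46.9, 44.8 and 51.0 CPM in AML WT, 36.1 and 36.4 in AML HET and 26.0, 19.9 and 21.8 in AML KO mice. No groups overlapped, and the steps were −0.39 and −0.68 (standard error 0.15 each, adjusted p of the second 0.375). Gm45837 had the opposite order, with 66.5 and 82.9 CPM in AML HET and 128, 117 and 101 in AML KO mice, and Gm8995 (422 and 302 against 110, 221 and 166 CPM), Gm4070, Gm15133 and Trim34a were lower.

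AML KO replicate 2 stood apart from the other AML KO mice at a group of genes 6.95 to 9.29 Mb from Gab2, which were chosen after their values were seen. Trim12a, of the Trim5 family of antiviral ubiquitin ligases, had 1126, 884 and 1240 counts in AML WT, 585 and 464 in AML HET and 2, 346 and 3 in AML KO mice. Trim5 had 0, 121 and 4, Trim30d 15, 230 and 28, Gvin1, an interferon-inducible large GTPase, 0, 92 and 0, and the pseudogene Gm1966 11, 2983 and 53 counts in AML KO mice. In each, AML KO replicate 2 lay close to the AML HET mice, and the other AML KO mice were near or at 0. With all mice their adjusted p lay from 0.779 to 0.875. Without AML KO replicate 2, Trim12a, Trim5, Gvin1 and Gm1966 were the 4 genes that passed, with adjusted p of 0.00028, 0.033, 0.0081 and 0.0054, and all were lower in AML KO. Members of the Trim and Gvin families have close copies nearby, so that their counts depend on how reads with several positions were treated. At Gab2 and Alg8 this mouse lay below both AML HET mice, as the other AML KO mice did. At Gab2 it was the AML KO mouse nearest to AML HET, and at Alg8 the one furthest from it. The labels give 1 strain for all mice, and whether the mice differ in strain-derived sequence around Gab2 was not tested, neither for these genes nor for Gm26862.

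**Figure D5:**
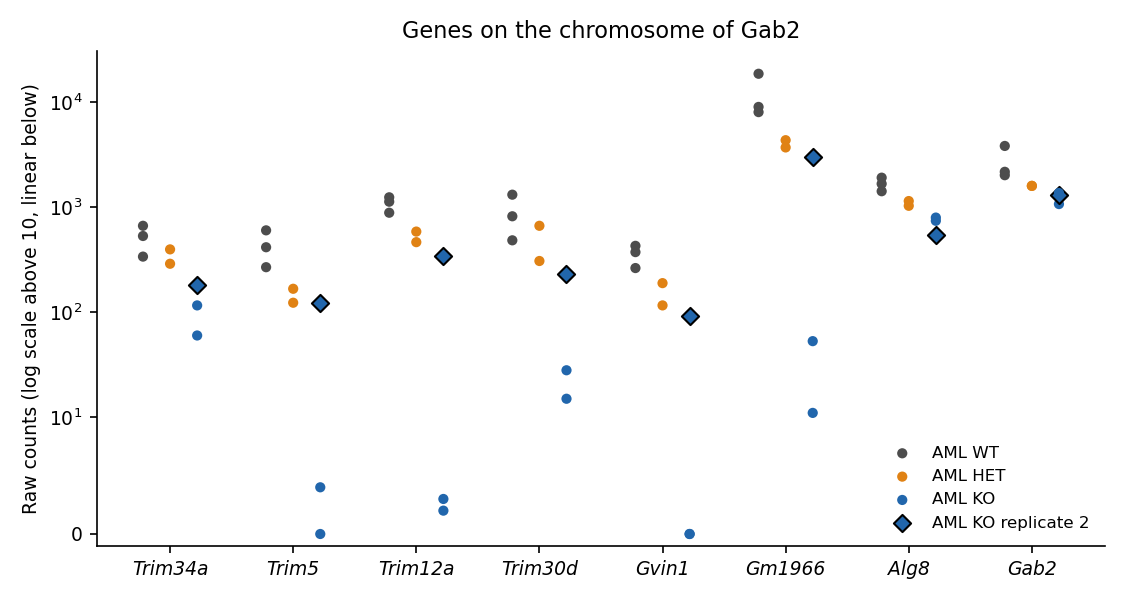
Raw counts (y axis, log scale above 10 and linear below) of 8 genes on chromosome 7 (x axis) in single mice, coloured by genotype, with AML KO replicate 2 as a diamond. At Trim5, Trim12a, Trim30d, Gvin1 and Gm1966 the diamond lies near the AML HET mice and the other AML KO mice lie far below, whereas at Alg8 and Gab2 it lies with them.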

How the data were processed

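RNA of whole BM was sequenced by the authors as 1 library per mouse, and deposited as unnormalized raw counts of 13305 genes in 8 mice. The submitters' processing notes name Trimmomatic 0.36, STAR 2.5.2b and mm10, and the counting tool is not given in the sources used here. The lowest total of a gene over all mice is 106 counts, so weakly expressed genes were not measured here. Identifiers were matched to GENCODE M21, where 13266 of 13305 were found, 39 not.

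The main analysis used edgeR 4.0.16 under R 4.3.3, with TMM, filterByExpr (which removed no gene) and a robust quasi-likelihood fit of all 8 mice with genotype as its only term. P was adjusted by the Benjamini-Hochberg method over all genes at a threshold of 0.05, and all adjusted p are from this fit unless another tool is named. The contrasts were AML KO minus AML HET, AML HET minus AML WT and the difference of both. P-values measure the spread between mice. Intervals are 95% intervals from the fit's degrees of freedom, and a count of 0 was taken to allow 3 counts, which covers counting error only. The script was tested on simulated counts. Alternatives were DESeq2 1.42.0, limma-voom (limma 3.58.1), upper-quartile normalization, 2 filters, the mice of each comparison alone, the mouse number as a block and each mouse left out. Libraries of 28009258 to 39266815 counts leave the spread between mice as the main error, except at genes with few counts such as Gp6.

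The members and the 33 gene lists (521 of 577 genes measured) were chosen with earlier results of these data known. Genes named were Gab2, Axl, Gfra2, Flt3 and Dnmt3a, the 12 with the smallest p in each direction without overlap, up to 4 per list with the largest change at an unadjusted p under 0.05 without overlap or else the member with the smallest p, the 8 with the smallest p for the difference between the steps and the 6 within 20 Mb of Gab2 with the smallest p. Not every such gene is named. Further list members were named to show the spread of a list, after their values were seen. Python 3.11.15 with pandas 2.3.3 and matplotlib 3.10.9 made the tables and plots.

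Some genes that meet the rule are not reported here.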

Additional observations from a re-analysis of the deposited data

How the results depend on the processing

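For AML KO against AML HET, 0 genes passed in the main analysis and with limma-voom, upper-quartile normalization, either filter on low counts and the replicate block, against 77 with DESeq2 and 3 with the 5 mice alone. Leaving out single mice gave 0 to 4 genes, with 1 (Eno1b) when AML WT replicate 2 was left out and 4 when AML KO replicate 2 was. For the difference between the steps, 1 gene passed in the main analysis, 3 with DESeq2, 0 with at least 100 counts in every mouse, where Gm26862 is not tested, 0 with the replicate block and 0 to 3 with single mice left out. For AML HET against AML WT, 3 genes passed in the main analysis, 59 with DESeq2, 1 with limma-voom, 0 with at least 100 counts, 5 with the 5 mice alone, 0 with the replicate block and 1 to 5 with single mice left out. Deviations from the group mean of AML HET and AML KO mice with the same number correlated at −0.14 and −0.040. The deviations of only 2 AML HET mice mirror each other, so these values cannot decide whether mouse numbers pair the mice. Mice with the same number correlated at 0.076 and 0.29 between AML WT and AML HET. Between AML WT and AML KO they correlated at −0.51, −0.11 and −0.13. The block changed the count for AML KO against AML HET at an unadjusted p under 0.05 from 780 to 695.

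Of 1548 log2 fold changes of 106 genes under the alternatives, 1497 kept their direction and side of the threshold, 43 were past it only under the alternative and 8 changed sign, at 4 genes: Flt3 (−0.0091 without AML HET replicate 2, and −0.0091 to 0.22 over the mice left out), Dnmt3a (0.036 with the replicate block, −0.12 to 0.15 over the mice left out, the latter without AML KO replicate 1), Mrpl48-ps (−0.00115 with limma-voom, −0.15 with the replicate block, −0.13 without AML HET replicate 1, −0.18 without AML KO replicate 3, and up to 0.18 over the mice left out) and Slfn14 (−0.039 without AML HET replicate 1, and up to 1.32 over the mice left out). The cause was not tested. With only 2 AML HET mice, any gene at which these differ has an uncertain second step. Depth limits genes such as Gp6, Gfra2 and Epx, with few counts per mouse.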
